A study of Rattus norvegicus with 16 samples.

Results

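The mitochondrially encoded respiratory chain genes were followed in the fetal suprachiasmatic nuclei (SCN), the hypothalamic structure that becomes the central circadian clock. The set was chosen by gene identity and not by measured values, and it holds 10 of the 32883 rat Ensembl genes in the count table. It does not hold every respiratory chain gene of the mitochondrial DNA, and the rest were not identified in the count table. All 10 were found and all 10 passed the filter on low counts, which kept 13685 genes. They were Mt-nd1 (ENSRNOG00000030644), Mt-nd2 (ENSRNOG00000031033), Mt-nd4 (ENSRNOG00000029707), Mt-nd5 (ENSRNOG00000029971) and Mt-nd6 (ENSRNOG00000029042) of complex I. The others were Mt-cyb (ENSRNOG00000031766) of complex III, Mt-co1 (ENSRNOG00000034234), Mt-co2 (ENSRNOG00000030371) and Mt-co3 (ENSRNOG00000030700) of complex IV, and Mt-atp6 (ENSRNOG00000031979) of complex V.

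RNA-Seq was performed on 16 libraries of Wistar rat fetal SCN. In Group A the pregnant mother had sham surgery and food ad libitum, and in Group B her SCN was lesioned and food was offered for 8 hours per day. Both groups were kept in constant darkness, and circadian time 12 (CT12) was the onset of locomotor activity in Group A and of food-related activity in Group B. Each group had 8 libraries, 1 at each of 8 circadian times 3 h apart, so that the design addressed 24-h rhythms and their dependence on the maternal SCN. Each library was a pool of fetuses of 1 litter, cut from frozen sections with a punch. The titles of all 16 libraries give 8 pooled SCN. The protocol in the labels gives 8 fetuses per pool for Group A and 5 to 10 for Group B. The labels thus conflict for Group B, and whether the pool size differed between the groups cannot be told. The labels give embryonic age 17. The paper gives a later day. No time point had a second library of the same group, so litter and circadian time cannot be told apart, and the groups differed in both surgery and feeding. Lists of markers of SCN neurons and of other cell types could not be matched to the identifiers, so the tissue label was not checked. In bulk tissue, fewer cells or mitochondria and less RNA per cell cannot be told apart.

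Mitochondrial DNA is a small circle that carries a few of the subunits of the respiratory chain, while most subunits, and all of complex II, are encoded in the nucleus. The mt-nd genes encode the membrane arm subunits of complex I (NADH dehydrogenase), Mt-cyb encodes cytochrome b, the mt-co genes encode the catalytic core of cytochrome c oxidase, and Mt-atp6 encodes a subunit of the proton channel of ATP synthase. Nearly all of these genes are cut out of long transcripts of the heavy strand and are then polyadenylated. Mt-nd6 is the exception, since it is read from the light strand. The levels of the mature transcripts therefore depend on a shared transcription step and on processing and decay that can differ between transcripts. Sequences of the mitochondrial genome and lengths of its genes were not used here, so levels are compared between libraries and not between genes.

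The total count was between 10746066 and 12781966 in Group A and between 10047500 and 18738585 in Group B, where the deepest library was CT9. The 10 genes made up on average 1.80% ± 0.100 of all counts in the libraries of Group A (SD, n = 8) and 1.73% ± 0.122 in those of Group B (SD, n = 8). In Group A the share was lowest at CT3 with 1.62% (95% Wilson interval 1.61 to 1.62), had a median of 1.83% and was highest at CT15 with 1.94% (1.93 to 1.95). In Group B the lowest share was 1.54% at CT6 (1.53 to 1.54), the median 1.72% and the highest 1.88% at CT9 (1.87 to 1.89). The ranges of the groups overlapped. The intervals cover counting error only, and they are far narrower than the spread between libraries, so that counting error is a small part of that spread. A sum over a chosen list received no test.

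**Figure D1:**
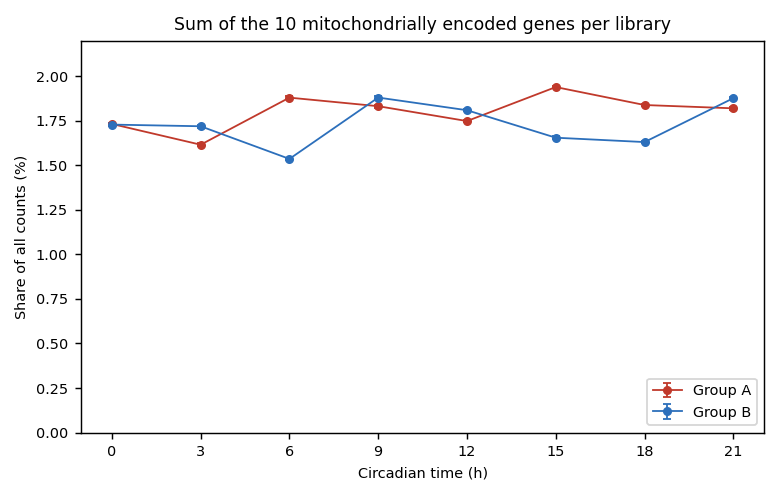
Share of all counts (%) taken by the sum of the 10 mitochondrially encoded genes against circadian time (h), 1 library per point, Group A in red and Group B in blue; error bars, mostly hidden by the points, are 95% Wilson intervals. The shares lie between 1.54% and 1.94%, and Group B is lower than Group A at CT6, CT15 and CT18 and, by a small margin (1.729% against 1.733%), at CT0.

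Mt-nd4, a complex I subunit, stood apart from the other members in its counts. It had a mean of 25 counts per library, with 18 to 34 counts, whereas the lowest value of any other member in any library was 3578 counts (Mt-nd6). It reached 1.5 CPM (counts per 1000000 counts of the library) in 15 of 16 libraries and made up 0.0116% of the members' counts. The counts of the other members averaged from 4610 (Mt-nd6) to 50767 (Mt-atp6, rank 5 of all genes in the table by mean count). These counts are not divided by gene length. How reads that match several places of the genome were counted was not given in the sources used here, and whether the count of Mt-nd4 reflects its transcript was not tested. Its coefficient of variation over libraries was 17.4% (Group A) and 26.3% (Group B), beside 20.3% and 19.7% from counting error alone. Mt-nd4 is therefore given below beside the other 9 genes and is pooled with them only where all 10 members are named.

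The complex I transcripts were present at similar levels in both groups. All levels from here on are normalised CPM, scaled between libraries by the trimmed mean of M-values (TMM). Mt-nd1 was between 1923 (CT3) and 2414 (CT15) in Group A, with a median of 2225, and between 1828 (CT6) and 2349 (CT21) in Group B, with a median of 2071. Mt-nd2 ranged from 1173 (CT3) through a median of 1380 to 1492 (CT15) in Group A, and from 1070 (CT6) through 1257 to 1449 (CT21) in Group B. For both genes the lowest library of Group B was below every library of Group A, and the highest of Group B was below the highest of Group A. Mt-nd5, which like the other mt-nd proteins sits in the membrane arm, ranged from 1433 (CT3) to 1728 (CT6) in Group A around a median of 1678, and from 1369 (CT15) to 1777 (CT21) in Group B around a median of 1569. Here Group B held both the lowest and the highest library.

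Mt-nd6, the light-strand gene, was lowest and highest in the same libraries as Mt-nd1 in Group A and as Mt-nd5 in Group B. Its level was lowest at CT3 (333), had a median of 389.6 and was highest at CT15 (420.3) in Group A. In Group B the corresponding values were 321.5 (CT15), 378.1 and 425.04 (CT21). As for Mt-nd5, both ends of the range were in Group B. Mt-nd4 was between 1.58 (CT0) and 2.51 (CT12) in Group A, with a median of 2.02, and between 1.45 (CT12) and 2.89 (CT0) in Group B, with a median of 1.92. CT0 and CT12 thus held opposite ends of the range in the groups, with counts of 18 and 27 for Group A and of 29 and 21 for Group B.

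The transcripts of complex III and complex IV overlapped between the groups as well. Mt-cyb, the cytochrome b of complex III, ranged from 1890 (CT3) through a median of 2238 to 2362 (CT15) in Group A, and from 1762 (CT6) through 2089 to 2393 (CT21) in Group B. Mt-co1, whose product binds the oxygen that complex IV reduces, ranged from 2756 (CT3) through 3086 to 3322 (CT15) in Group A, and from 2597 (CT6) through 2952 to 3225 (CT9) in Group B. The lowest libraries were those of CT3 in Group A and CT6 in Group B for both genes. Mt-co2, the subunit that receives electrons from cytochrome c, was between 1413 (CT3) and 1696 (CT15) in Group A and between 1271 (CT6) and 1674 (CT21) in Group B. Mt-co3, the remaining core subunit, was between 1321 (CT3) and 1580 (CT15) in Group A and between 1233 (CT6) and 1476 (CT21) in Group B. The highest library was again CT15 of Group A for each.

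Mt-atp6 of complex V departed in part from this order. Its lowest libraries were again CT3 in Group A (3863) and CT6 in Group B (3508), with medians of 4219 and 4216. Its highest library in Group A was CT18 (4687) and not CT15, and in Group B it was CT9 (4558). The medians of the groups were thus almost equal for this gene.

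**Figure D2:**
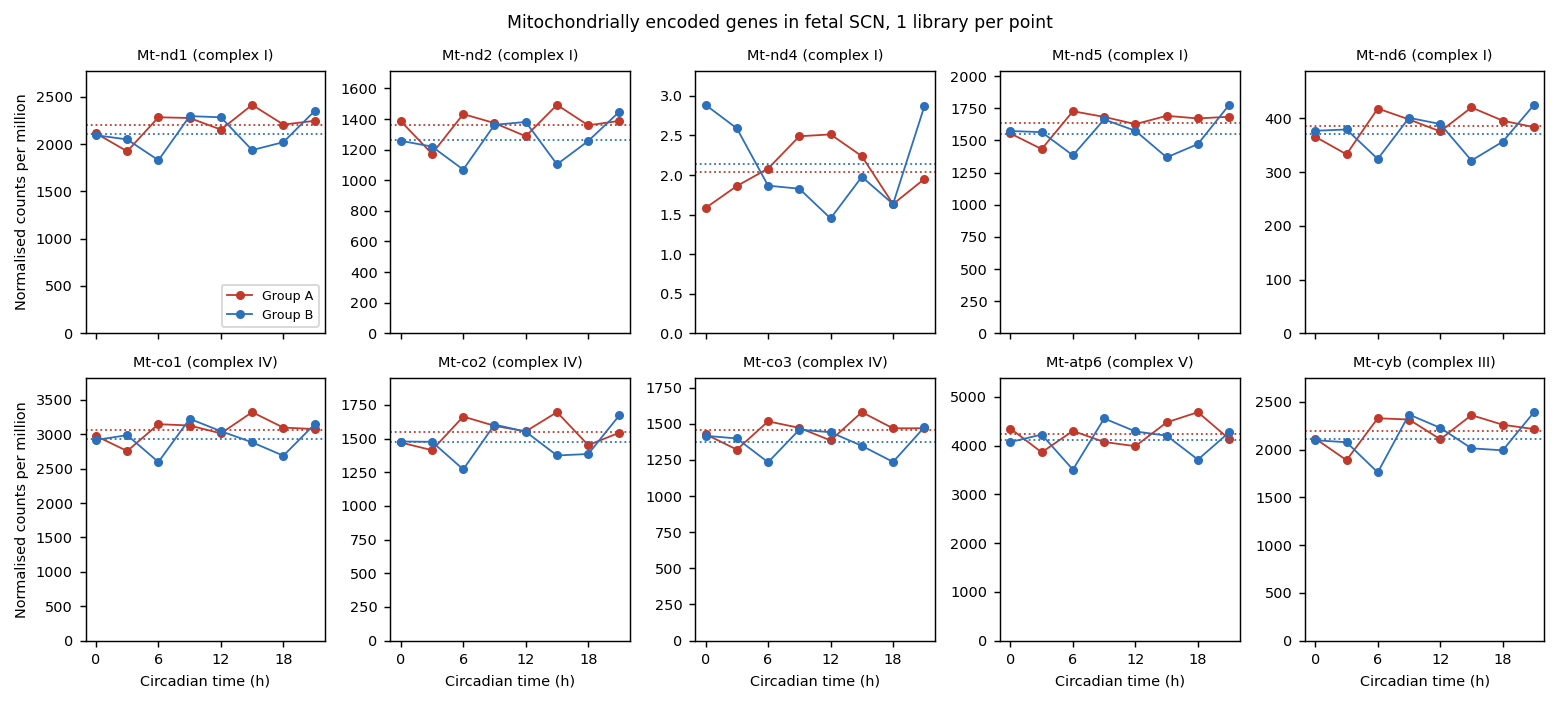
Normalised CPM of each of the 10 genes against circadian time (h), 1 library per point, Group A in red and Group B in blue, with dotted lines at the group means (8 libraries each). The lines of the groups cross in every panel, and Mt-nd4 lies between 1.45 and 2.89 CPM while no other gene falls below 321.5 CPM.

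Much of the variation between libraries was shared by the members. After centring the log2 level of each of the 9 genes other than Mt-nd4 on its own mean of 16 libraries, the mean of the 9 ranged from −0.24 (Group B, CT6) to 0.15 (Group A, CT15). All 9 genes were above their own mean in Group A at CT6 and CT15 and in Group B at CT9 and CT21. None of the 9 was above its mean in Group A at CT3 or in Group B at CT6 and CT18, and only 1, Mt-atp6, was at CT15 of Group B. Over the 8 libraries of a group the SD of this shared profile was 0.087 for Group A and 0.12 for Group B (log2 units). All levels are relative to the other genes of the same library.

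Single members varied more than the median of the tested genes with a mean of at least 1000 counts. The SD of the log2 level over the 16 libraries was between 0.096 (Mt-co1) and 0.14 (Mt-nd2) for the 9 genes, with a median of 0.11, and it was 0.30 for Mt-nd4. The median was 0.17 over all tested genes and 0.084 over the 2700 tested genes with a mean of at least 1000 counts, and all 9 genes lay above the latter. The 9 genes themselves averaged 4610 to 50767 counts, so those 2700 genes were not matched to them in depth. Counting error alone gives these 9 genes coefficients of variation below 1%, apart from Mt-nd6 with 1.48% for Group A and 1.47% for Group B.

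**Figure D3:**
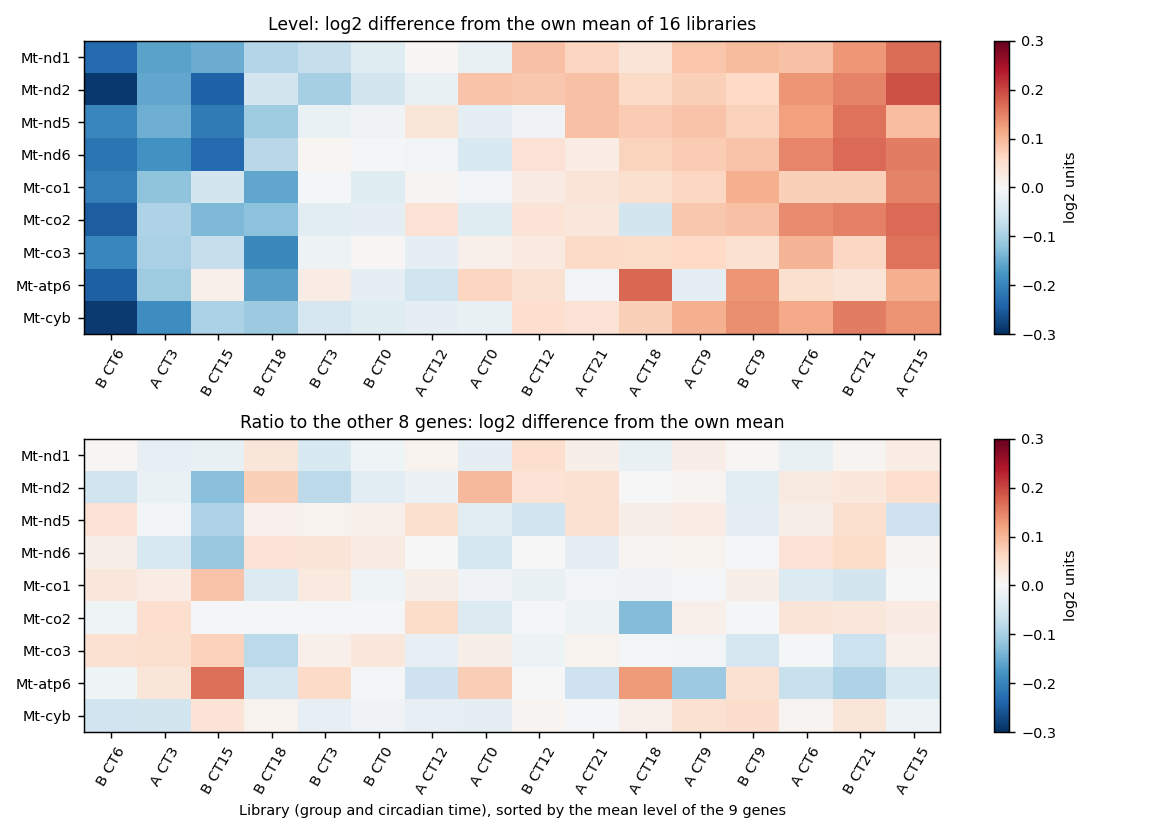
Heat maps of 9 mitochondrially encoded genes (rows, without Mt-nd4) in 16 libraries (columns, group letter and circadian time, sorted by the mean level of the 9 genes), in log2 units from the own mean of each gene. In the upper map of levels whole columns share a colour, from Group B CT6 at −0.24 on average to Group A CT15 at 0.15; in the lower map of the ratio of each gene to the other 8 most cells are pale and Mt-atp6 has the strongest colours, up to 0.16 at CT15 of Group B.

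The ratios between members were steadier than their levels. The SD over 16 libraries of the log2 ratio of a gene to the mean of the other 8 was lowest for Mt-nd1 (0.026) and between 0.034 and 0.058 for Mt-cyb, Mt-co1, Mt-co3, Mt-co2, Mt-nd5, Mt-nd6 and Mt-nd2. It was highest for Mt-atp6 (0.078). From the lowest to the highest library, the ratio of Mt-nd1 changed 1.07-fold, while its level changed 1.32-fold. For Mt-atp6 the ratio changed 1.21-fold and the level 1.34-fold. The Mt-atp6 ratio was highest in Group B at CT15 (0.16 above its mean, log2) and lowest in Group A at CT9 (0.11 below). In that CT15 library Mt-nd2, Mt-nd5 and Mt-nd6 had their lowest ratios, at −0.13, −0.093 and −0.11, and Mt-co1 and Mt-co3 their highest, at 0.085 and 0.070.

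Single pairs of genes showed which transcripts kept the most constant proportion. Of the 36 pairs of the 9 genes, Mt-co1 and Mt-co3, both of complex IV, had the smallest SD of the log2 ratio (0.027, beside 0.014 from counting error alone). Mt-nd1 with Mt-cyb (0.033) and Mt-nd5 with Mt-nd6 (0.034) followed. Mt-co2, also of complex IV, had larger SDs with Mt-co1 (0.049) and with Mt-co3 (0.055). The pair of Mt-nd5 and Mt-nd6 lies on opposite strands of the mitochondrial DNA, and counting error alone would give it 0.024. The strand setting of the counting is not given, and whether reads of 1 of these genes were counted for the other was not tested. The 8 pairs with Mt-atp6 had SDs from 0.057 to 0.11, of which Mt-nd2 with Mt-atp6 was the largest, and the 28 pairs without it had SDs from 0.027 to 0.078. Pearson's r of the log2 levels over the 16 libraries was 0.84 to 0.97 (median 0.91) for the pairs without Mt-atp6 and 0.62 to 0.85 (median 0.69) for the pairs with it. These coefficients describe libraries that the genes share, with their depth and scaling, and they carry no test.

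**Figure D4:**
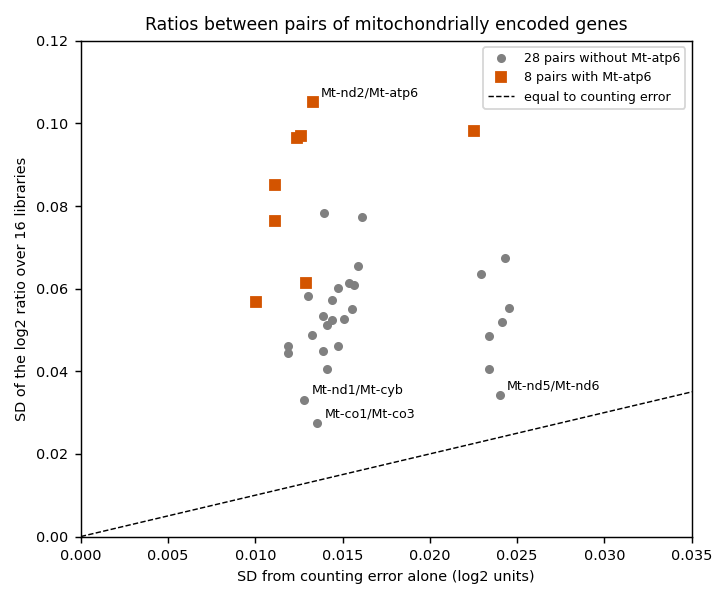
SD of the log2 ratio over 16 libraries (vertical) against the SD that counting error alone would give (horizontal) for each of 36 pairs of 9 mitochondrially encoded genes; orange squares are the 8 pairs with Mt-atp6, grey circles the 28 others, and the dashed line marks equality. All pairs lie above the line, and the pairs with Mt-atp6 lie between 0.057 and 0.11.

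The comparison of Group B with Group A asked whether the maternal SCN lesion combined with restricted feeding went with another overall level. The main test had no term for circadian time. None of the 10 members passed a Benjamini-Hochberg adjusted p of 0.05 in edgeR's quasi-likelihood test (0 of 10), and 0 of the 13685 genes did (0%), the lowest adjusted p over all genes being 0.706. At an unadjusted p of 0.05 there were 0 members and 795 genes (5.81%), and DESeq2's Wald test also called 0 genes. The unadjusted count rose to 3 members (Mt-nd2, Mt-nd5 and Mt-co3) without CT3 of Group A, beside 5.02% of genes, to the same 3 without CT21 of Group B (5.10%), and to 1 (Mt-nd2) without CT12 of Group B (4.80%). The lowest p of a member was that of Mt-nd2, with 1361 ± 96.1 normalised CPM (SD, n = 8) for Group A and 1262 ± 132 (SD, n = 8) for Group B. Its log2 difference was −0.11 (95% interval −0.23 to 0.01), with an adjusted p of 0.884 in edgeR's test.

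The fitted level was lower in Group B for 9 of the 10 members, beside 50.9% of all tested genes. Since the members rise and fall together across libraries, these 9 are not separate observations, and the median log2 difference was −0.06 over the 10 members against −0.0019 over all tested genes. Among the 9 genes the difference ran from −0.11 (Mt-nd2) and −0.08 (Mt-co3, Mt-nd5) to −0.04 (Mt-atp6), and the groups overlapped for all 10. The unadjusted 95% intervals of the 9 genes reached from a level in Group B of 0.852 times that of Group A (Mt-nd2) to 1.04 times (Mt-cyb). Larger differences lie outside these intervals, whereas a decrease of several percent does not. For Mt-nd4, with a log2 difference of 0.05 (95% interval −0.35 to 0.44), the interval spans 0.787 to 1.36 times, and its sign turned when CT0 or CT21 of Group B was left out (−0.02 for each).

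**Figure D5:**
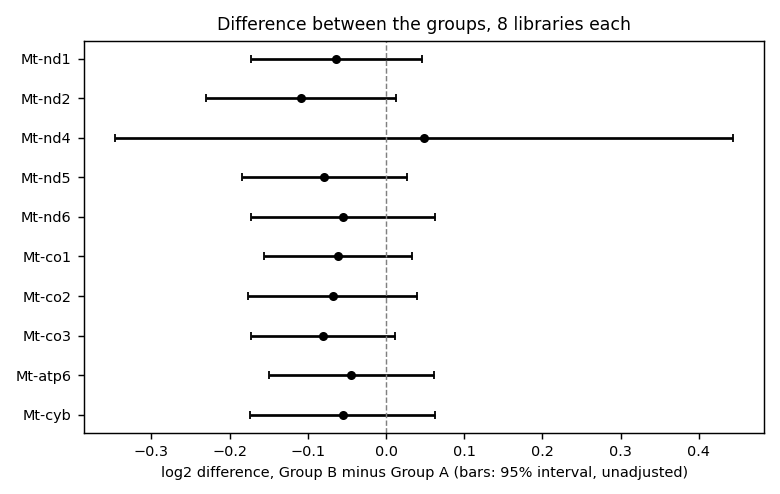
Fitted log2 difference of Group B minus Group A for each of the 10 genes (points) with its unadjusted 95% interval (bars), 8 libraries in each group. The interval of every gene includes 0, and that of Mt-nd4, from −0.35 to 0.44, is the widest.

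The difference between the groups was not even across the day, as far as 1 library per group and time can show. At CT6 all 9 genes were lower in Group B, with a median log2 difference of −0.32 (−0.42 to −0.28). All 9 were also lower in Group B at CT15 (median −0.30) and CT18 (median −0.18). All 9 were higher in Group B at CT3 (median 0.12) and CT21 (median 0.07), and at CT0, CT9 and CT12 the genes were split. These are single libraries without a replicate, so no test was made, and the 9 genes share each library.

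Daily rhythms were then examined, since the study asks which transcripts of the fetal SCN follow maternal signals. A 24-h cosine common to both groups passed the adjusted p of 0.05 for none of the members (0 of 10), and for 47 of all tested genes (0.343%). The fitted difference from trough to peak of the 9 genes was 0.04 (Mt-nd5) to 0.11 (Mt-nd1) on the log2 scale, with a median of 0.08. Single libraries moved these values by more than 1.5 times, for instance Mt-co3 from 0.04 to 0.0024 without CT3 of Group A and Mt-nd1 to 0.16 without CT15 of Group B. The median was 0.16 over all tested genes and 0.09 over those with a mean of at least 1000 counts. Mt-nd1 had the lowest adjusted p of the members (0.777, edgeR's quasi-likelihood test), with a fitted peak at CT14.7 and 1.08 times the trough level. Mt-cyb was fitted alike, with a peak at CT14.8 and a ratio of 1.08.

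Within the groups the fitted rhythms were also shallow. In Group A 0 of 10 members passed (background 0.00731%), and the 9 genes had fitted peaks of 1.07 (Mt-co3) to 1.12 (Mt-nd6) times the trough. In Group B 0 of 10 passed (background 0.095%), and the ratios of the 9 genes were 1.01 (Mt-co3) to 1.07 (Mt-nd5). The fitted peak of Mt-atp6 fell at CT17.9 for Group A and at CT11.9 for Group B, while those of Mt-nd1 were at CT14.1 and CT16.3. With fits this flat the peak times are descriptions only. Mt-nd4 had the lowest adjusted p of the members in both tests by edgeR, 0.807 for Group A and 0.496 for Group B. At an unadjusted p of 0.05 there were 0 members in each group, beside 7.45% of all tested genes for Group A and 10.7% for Group B. With at least 10 counts required in every library, Mt-nd4 fell below this unadjusted threshold in Group B, beside 11.0% of genes.

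A difference of rhythm between the groups was called for 0 of 10 members and 0 of all tested genes (0%). At an unadjusted p of 0.05 there was 1 member, Mt-nd4, beside 6.11% of all tested genes. Its adjusted p was 0.806 in edgeR's test, with a fitted peak of 1.49 times the trough at CT10.7 in Group A and of 1.81 times at CT23.9 in Group B. The unadjusted call was lost without CT0 or CT12 of Group A, without CT0, CT12 or CT21 of Group B, and in DESeq2's test. These fits rest on 18 to 34 counts per library. For Group A the coefficient of variation of Mt-nd4 over libraries, 17.4%, lay below the 20.3% that counting error alone would give. For Group B the coefficient, 26.3%, exceeded its counting value of 19.7%. Whether counting error accounts for either fit was not tested.

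Model selection gave the same picture for the members. Each gene was fitted with no rhythm, a rhythm in 1 group, a common rhythm or different rhythms, and the model lowest in the Bayes information criterion was kept if its weight (BICW) exceeded 0.5. All 10 members were assigned to no rhythm, beside 69.2% of all tested genes. The weights were between 0.573 (Mt-nd4) and 0.795 (Mt-co3). For Mt-nd4 a rhythm in Group B had the next weight (0.26), and for the other 9 genes a rhythm in Group A or a common rhythm held second place, at 0.089 (Mt-co3) to 0.14 (Mt-nd1). At a BICW above 0.75, 2 of the members would remain assigned to no rhythm, beside 26.0% of all tested genes. With Gaussian fits to log2 CPM in place of count models, 9 members were assigned to no rhythm (47.1% of all tested genes), and Mt-nd4 was assigned to different rhythms with a BICW of 0.936.

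A search over all tested genes gave those whose levels were most like the mean log2 level of all 10 members. Mt-nd4, with its few counts, entered this mean with the same weight as each other member. The search was not repeated without it. Over the 16 libraries, ENSRNOG00000030478 (r = 0.843) and ENSRNOG00000043866 (r = 0.836) had the highest Pearson's r of the log2 level with the members' mean, and the 5 highest lay between 0.760 and 0.843. The other 3 of these 5 had means of 368.5, 41.8 and 1675 counts per library. These r are descriptions chosen as the highest among all tested genes over shared libraries. The tables used here pair neither identifier with a symbol. ENSRNOG00000030478 and ENSRNOG00000043866 had more counts than any other gene, together 9.24% to 11.0% of a library. Neither passed the comparison of the groups by edgeR, with log2 differences of −0.05 (adjusted p of 0.889) and −0.09 (adjusted p of 0.850). The nuclear-encoded subunits of the respiratory chain and the factors of mitochondrial transcription could not be matched by symbol and were not analysed here.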

How the data were processed

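The authors depleted rRNA, enriched polyA RNA, prepared stranded libraries and mapped single-end reads to rn6 with HISAT2 2.1.0. The deposited counts per Ensembl gene, for which Salmon and StringTie are named, are whole numbers without normalization or filter. The strand setting and the treatment of multi-mapping reads are not given in the sources used here.

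From these counts, genes reaching 1.5 CPM (or more) in 3 or more libraries were tested over all 16 with edgeR 4.0.16 (R 4.3.3; TMM, quasi-likelihood test, Benjamini-Hochberg adjustment over all tested genes). Rhythm tests used cosine and sine terms of 24 h. Model selection after dryR used size factors and dispersions from DESeq2 1.42.0. Scripts were tested on simulated data. Alternatives were other normalizations, filters and tools, circadian time as a block (comparison of groups only), and each library left out in turn.

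All 10 members were named, and the 5 genes most like them sought, of which 2 are printed. The members and lists were chosen with earlier results of these data known. Their symbols came with the list of identifiers. No protein measurements were used. The samples are separate litters, each at another circadian time within its group. The comparison of groups had no term for time, so its p-values measure the spread of litter and time together. Those of the rhythm tests measure the scatter of libraries around the fitted curve. Total counts of 10047500 to 18738585 limit the precision of Mt-nd4 and, to a lesser degree, of the ratios between members.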

Additional observations from a re-analysis of the deposited data

Results flagged for a closer look

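Within each group of 8 libraries, a search was made for 1 library far from the rest. It covered the level of each member, the summed share of the members and, Mt-nd4 left out, the ratio of each member to the others. Of 40 sets of values 2 stood out, where about 1 in 20, or 2 of 40, would by chance. The log2 ratio of Mt-co2 to the other members was high in Group B at CT21, at 0.033 above its mean beside −0.0027 in the nearest library and −0.013 at the other end. The gap was 0.778 of the range of the group, past Dixon's critical value at the 95% level. The log2 ratio of Mt-nd6 was low in Group B at CT15, at −0.11 beside −0.0060 in the nearest library (CT9) and 0.055 at the other end, a gap of 0.639 of the range. Over all 16 libraries the ratio changed 1.14-fold for Mt-co2 and 1.12-fold for Mt-nd6. Neither flagged value was tested in a second library.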

How the results depend on the processing

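Circadian time as a block was run for the comparison of groups only. In all alternatives (22 to 24 for each test across genes), 0 members passed the comparison of groups or any of the 4 rhythm tests. In DESeq2's test of a rhythm in Group A this covers 9 members, since Mt-nd4 had no adjusted p there. The lowest adjusted p of a member over these alternatives was 0.410, for a rhythm in Group B. The log2 difference between the groups kept its sign for the 9 genes other than Mt-nd4 under every alternative, and its size moved with single libraries, for instance from −0.0445 to −0.0165 for Mt-atp6 and from −0.0554 to −0.0229 for Mt-cyb without CT6 of Group B. For Mt-nd4 it ran from −0.02 to 0.12 when single libraries were left out, and it was negative without CT0 or CT21 of Group B (−0.0229 and −0.0213). Under Gaussian fits to log2 CPM, 1 member was assigned to a rhythmic model, namely Mt-nd4 to different rhythms with a BICW of 0.936, and the cause was not tested. Members assigned to no rhythm numbered 2 at a BICW above 0.75 (26.0% of all tested genes), 9 without CT6 of Group B (70.3%), 8 without CT15 of Group B (68.3%) and 10 without any other single library (66.7% to 71.9%). The fitted common difference from trough to peak of the 9 genes ran from 0.0024 (Mt-co3) to 0.17 (Mt-nd2) when single libraries were left out.

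Counts over all tested genes moved more. The common rhythm was called for 47 genes by edgeR, 69 without the filter and 266 by DESeq2, and for 1 to 92 when single libraries were left out, the 1 being without CT3 and also without CT18 of Group A. For a rhythm in Group B the counts were 13, 21 without the filter, 5 with the group fitted alone and 133 by DESeq2, and 1 (without CT3 or CT12 of Group B) to 24 with single libraries left out. For Group A they were 1, 3, 0 and 26, and for a difference of rhythm DESeq2 called 4. Rhythmic models numbered 1647, 418 at a BICW above 0.75 and 3444 under Gaussian fits. The number of litters, 1 per group and time, limits these comparisons.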
